A study of Mus musculus with 4 samples.

Results

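The levels of 41 genes of differentiating neurons were examined in the 4 outgrowths that build the mouse face. The members were chosen by name for their known roles as cytoskeletal, RNA-binding, synaptic, granule, transcription factor and receptor genes of young neurons, and they are 41 of the 43346 gene entries measured. Earlier results of these data were known at that choice. Contrasts with all genes below therefore describe the list and do not test it. All 41 were found in the data. RNA was sequenced from the medial nasal, lateral nasal, maxillary and mandibular processes at e11.5 (days of embryonic development), each giving 1 library of mixed cell types. All 4 libraries came from freshly dissected tissue of the wild-type genotype, and no treatment, allele or transgene is named for any of them. The sample used as the medial nasal process carries that name in its title and tissue field, although the abbreviation in brackets beside its tissue is the one of the lateral nasal process. The study's methods name FVB/NJ crosses for other mouse assays and animals of both sexes for its mouse work as a whole, and the strain, sex and number of embryos behind each of these 4 libraries are not stated in the sources used.

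A cell that leaves the cell cycle to become a neuron turns on a shared set of genes, first transcription factors and RNA-binding proteins, then the tubulins, filaments and growth cone proteins of the axon, and later the machinery of vesicle release. In the face at this stage such cells come from several places. The epithelium of the nasal pit gives rise to olfactory neurons and to migrating neuronal cells, while the cell bodies of the trigeminal ganglion lie behind the processes and send their sensory axons into them, and the forebrain borders the nasal region. The maxillary and mandibular processes belong to the first pharyngeal arch and consist mainly of neural crest mesenchyme under an epithelium.

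The total of estimated counts was 13216161 in medial nasal, 16163874 in lateral nasal, 15385124 in maxillary and 13680302 in mandibular tissue. Levels are given as CPM, counts per 1000000 scaled with TMM factors, which balance the libraries on the bulk of their genes. A level of 5 CPM stood for between 67.4 and 81.2 counts, and 3 counts for 0.185 to 0.223 CPM. Intervals in brackets are exact 95% intervals for counting error only, since 1 library per process gives no spread between embryos, no replicate check and no p-value. In tissue of mixed cells, fewer neurons and less neuronal RNA per neuron cannot be told apart. A list of 13 facial mesenchyme genes summed to 3305, 3254, 3718 and 3525 CPM in medial nasal, lateral nasal, maxillary and mandibular libraries, with no member at 0 in any library.

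The 41 neuronal genes together stood at 1142 CPM in the medial nasal library, 663 CPM in lateral nasal, 604 CPM in maxillary and 372 CPM in mandibular tissue. These sums were 0.117%, 0.0666%, 0.0596% and 0.0366% of the counts in the same order. Every member had at least 1 count in every library. A level of 5 CPM was reached by 32 members in the medial nasal, 22 in lateral nasal, 17 in maxillary and 13 in mandibular tissue. It was reached in at least 1 library by 33 members, and 8 stayed below it everywhere: Nefh, Prph, Stmn4, Snap25, Scg2, Chga, Chgb and Ntrk3. Because a gene passes this minimum through its highest library, counts over the 33 are set beside the same share of all genes and beside the values of all 41 members.

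**Figure D1:**
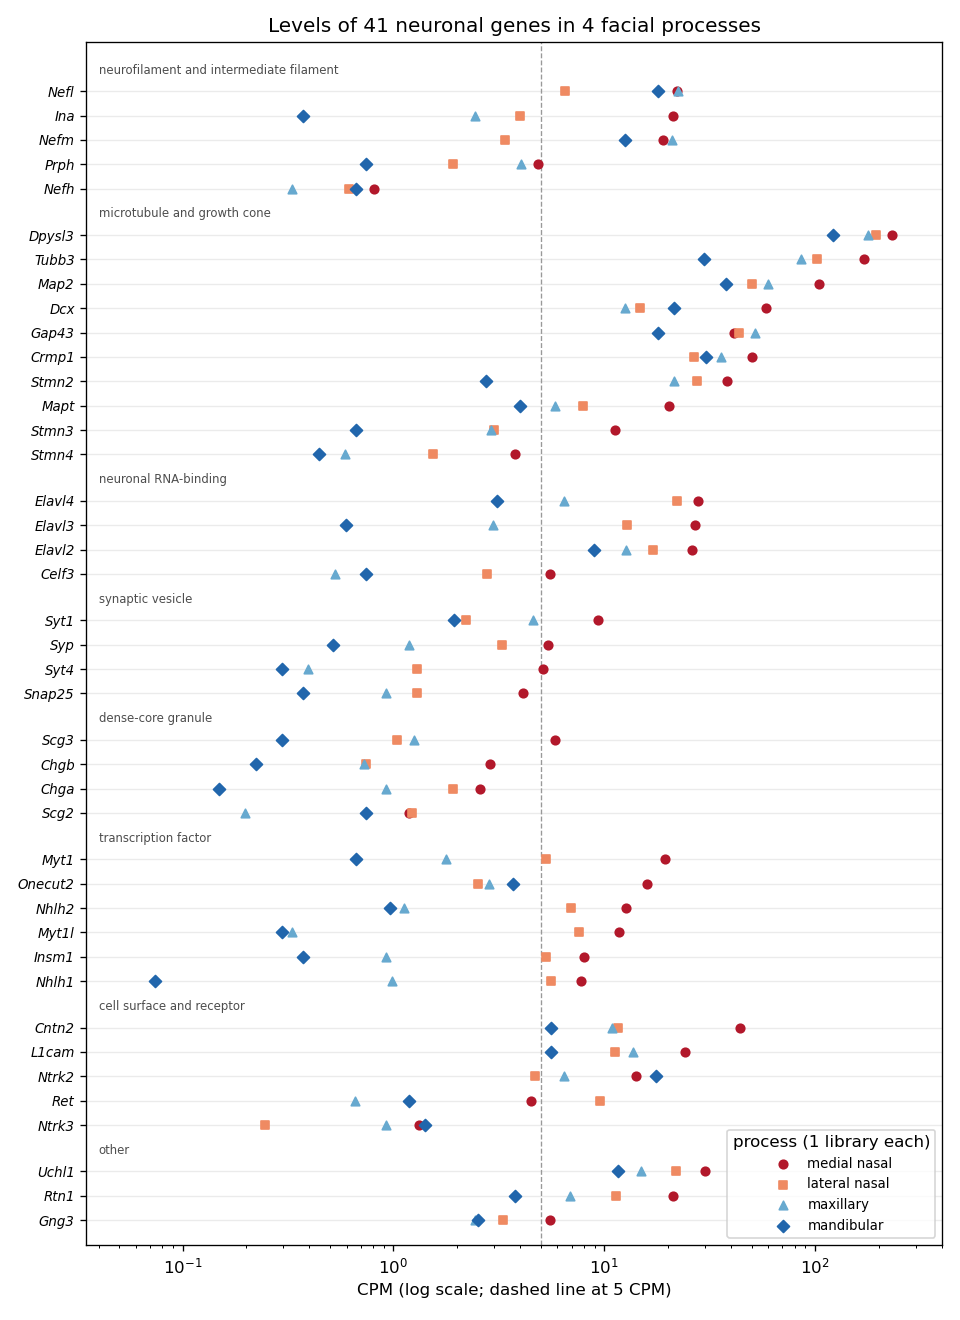
CPM on a log axis of the 41 neuronal genes, grouped by role, with 1 point per library (circle, medial nasal; square, lateral nasal; triangle, maxillary; diamond, mandibular) and a dashed line at 5 CPM. The medial nasal circle is the rightmost point for 34 of the 41 genes, and the mandibular diamond the leftmost for 29.

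Of the 33 members that reached 5 CPM, 28 were highest in the medial nasal library, where 22.0% of the 12406 genes at that level were highest. Of the same 33, 24 were lowest in the mandibular library, against 24.9% of all genes, and 23 were both highest in the medial nasal and lowest in the mandibular library, against 6.84%. The full order medial nasal, lateral nasal, maxillary, mandibular was followed by 19 members, against 4.38% of all genes. Over all 41 members the same numbers were 34, 29, 28 and 23. The highest library lay above the next by more than counting error for 34 of 41 members, and in 31 of these the highest was the medial nasal library. This comparison was made for the members only. Without the share of all genes it does not set the members apart. The exceptions to the medial nasal maximum were Nefl, Nefm and Gap43, which were highest in the maxillary library, Ntrk2 and Ntrk3, highest in the mandibular, and Ret and Scg2, highest in the lateral nasal library. For Nefl, Nefm, Ntrk3 and Scg2 the lead over the medial nasal library did not exceed counting error, whereas for Gap43, Ntrk2 and Ret it did. No member was lowest in the medial nasal library.

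The transcription factors among the members gave the sharpest contrast between nasal and arch tissue. Nhlh1, a basic helix-loop-helix factor switched on as neurons are born, lies on chromosome 1 from 172052292 to 172057573 of GRCm38. Its level was 7.76 CPM in medial nasal and 5.60 CPM in the lateral nasal library, against 0.988 CPM in the maxillary library and a single count, 0.0742 CPM, in the mandibular library. The medial nasal level was 1.39-fold that of the lateral nasal (interval 1.04 to 1.86) and 7.86-fold that of the maxillary library (interval 4.55 to 14.5). Against the single mandibular count the ratio was 105-fold with an interval from 18.4 to 4168. Its relative Nhlh2 had 12.6 and 6.95 CPM in medial and lateral nasal libraries and 1.12 and 0.965 CPM in the maxillary and mandibular libraries. The maxillary and mandibular levels of Nhlh2 did not differ beyond counting error (1.16-fold, interval 0.531 to 2.597). Both factors therefore had their nasal levels in the same order, with no overlap between the nasal and the arch values.

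Myt1l, a zinc finger factor that holds non-neuronal genes down in neurons, showed the widest gap between the nasal and arch libraries among the members. It stood at 11.8 CPM in medial nasal and 7.57 CPM in the lateral nasal library, against 0.329 CPM (5 counts) in maxillary and 0.297 CPM (4 counts) in mandibular tissue. The lateral nasal level was 23.0-fold the maxillary level (interval 9.59 to 72.1). The related factor Myt1, which acts earlier in neuronal commitment, had a wider gap within the nasal pair. Its levels were 19.4 CPM in medial nasal, 5.29 CPM in lateral nasal, 1.78 CPM in maxillary and 0.668 CPM in mandibular tissue, and each step in this order was larger than counting error. Insm1, a zinc finger factor of neuronal and endocrine precursors, stood at 8.06 and 5.29 CPM in medial and lateral nasal libraries and at 0.922 and 0.371 CPM in the maxillary and mandibular libraries. Onecut2, a factor with a cut domain and a homeodomain, did not share this pattern. It reached 16.04 CPM in the medial nasal library and 2.52, 2.83 and 3.71 CPM in the lateral nasal, maxillary and mandibular libraries. The last 3 levels did not differ from each other beyond counting error, and the medial nasal level was 4.32-fold the mandibular one (interval 3.165 to 6.001).

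The neuronal RNA-binding proteins of the Elavl (Hu) family bind and stabilise messenger RNAs of neurons, and its members differed in how far they reached into the arch libraries. Elavl3 stood at 27.0 CPM in medial nasal, 12.8 CPM in lateral nasal, 2.96 CPM in maxillary and 0.594 CPM in mandibular tissue, 4 levels that all differed beyond counting error. From the medial nasal to the mandibular library this was a ratio of 45.4 (interval 22.8 to 106). Elavl4 kept a more even level within the nasal pair, at 27.8 CPM in medial nasal and 22.0 CPM in the lateral nasal library, against 6.45 CPM in maxillary and 3.12 CPM in mandibular tissue. Elavl2 was the flattest of the family, with 26.02, 17.0, 12.6 and 8.91 CPM in medial nasal, lateral nasal, maxillary and mandibular libraries. In the medial nasal library the 3 Elavl genes thus lay within 26.02 to 27.8 CPM, whereas in the mandibular library Elavl2 stood far above Elavl3. On the scale of TPM, which corrects for transcript length, Elavl2, Elavl3 and Elavl4 had 8.31, 4.68 and 6.18 TPM in the medial nasal and 3.10, 0.10 and 0.82 TPM in the mandibular library. Celf3, a splicing regulator of neurons, stood at 5.54 and 2.77 CPM in medial and lateral nasal libraries and at 0.527 and 0.742 CPM in the maxillary and mandibular libraries.

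Promoter sequence was looked at because these genes moved together across the libraries. Helix-loop-helix factors such as the Nhlh, Neurod and Neurog proteins bind E-boxes, and the letters CAGCTG and CAGATG were searched on both strands from 250 bases before to 50 bases after each gene start in RefSeq on GRCm38.p6. The table held a promoter for 27 of the 41 members, and where a gene had several starts a match at any of them was counted. At least 1 of the 2 E-boxes was present in 15 of the 27 members (55.6%), against 33.4% of 27025 genes. Several starts were listed for 10 of the 27 members and for 4163 of the 27025 genes. Among genes with a single start, 8 of 17 members held an E-box (47.1%), against 30.5% of 22862 genes. Among genes with several starts, 7 of the 10 members did, against 49.4% of all such genes. The GC box (GGGCGG), searched in the same way, was present in 17 of the 27 members (63%), against 38.2% of all genes. The TATA box (TATAAA) was present in 5 members (18.5%), against 15.7%. A higher share among the members was therefore not particular to the E-boxes. The bases before the start are shown for Elavl3 and Nhlh1, which separate nasal from arch libraries, and for Ina and Stmn3, which are led by the medial nasal library alone. The examples shown all hold an E-box there. The windows of Tubb3 and Uchl1, whose levels also followed the common order of the libraries, held neither E-box. The E-box is in capitals and each sequence reads 5′ to 3′ along the gene. The windows are chr9:22052024-22052273 on the minus strand for Elavl3, chr1:172057597-172057846 on the minus strand for Nhlh1, chr19:47014431-47014680 on the plus strand for Ina and chr2:181314501-181314750 on the minus strand for Stmn3, and the E-boxes begin at -43, -203, -135 and -75 from the start.
Elavl3: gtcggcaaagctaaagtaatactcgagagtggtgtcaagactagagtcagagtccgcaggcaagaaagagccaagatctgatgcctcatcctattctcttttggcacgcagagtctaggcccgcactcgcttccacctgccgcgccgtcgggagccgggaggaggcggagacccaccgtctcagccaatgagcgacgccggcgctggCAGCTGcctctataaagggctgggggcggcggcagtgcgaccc
Nhlh1: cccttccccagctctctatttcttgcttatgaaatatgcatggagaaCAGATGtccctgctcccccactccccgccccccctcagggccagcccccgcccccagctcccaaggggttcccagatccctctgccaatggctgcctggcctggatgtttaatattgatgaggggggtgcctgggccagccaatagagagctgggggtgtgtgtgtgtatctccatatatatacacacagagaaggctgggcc
Ina: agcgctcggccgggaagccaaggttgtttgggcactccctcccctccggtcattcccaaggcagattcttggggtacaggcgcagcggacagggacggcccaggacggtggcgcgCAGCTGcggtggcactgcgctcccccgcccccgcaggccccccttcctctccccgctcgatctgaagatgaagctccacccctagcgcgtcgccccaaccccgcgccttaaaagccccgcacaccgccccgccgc
Stmn3: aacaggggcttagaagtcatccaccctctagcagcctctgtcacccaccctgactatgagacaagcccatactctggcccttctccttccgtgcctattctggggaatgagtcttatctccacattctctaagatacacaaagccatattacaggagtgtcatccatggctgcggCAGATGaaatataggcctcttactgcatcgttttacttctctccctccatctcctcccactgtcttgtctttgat
Elavl3 and Ina carry CAGCTG, and Nhlh1 and Stmn3 carry CAGATG. The left part of the RE1 element bound by the repressor REST (TTCAGCACC) was found in Scg2 alone among the members and in 0.433% of all genes. These are matches of letters, and binding was not measured.

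The intermediate filament genes split into different patterns. Nefl and Nefm encode the light and medium neurofilament chains of large axons, and overlap on chromosome 14. Nefl, from 68083863 to 68089095 on the plus strand, lies within the annotated span of Nefm, from 68082590 to 68124846 on the minus strand. Nefl stood at 22.0 CPM in medial nasal, 6.52 CPM in lateral nasal, 22.4 CPM in maxillary and 18.0 CPM in mandibular tissue. Nefm stood at 19.0 CPM in medial nasal, 3.39 CPM in lateral nasal, 20.9 CPM in maxillary and 12.5 CPM in mandibular tissue. Both were lowest in the lateral nasal library, and for both the medial nasal and maxillary levels did not differ beyond counting error. The lateral nasal level of Nefm was 0.162-fold the maxillary (interval 0.119 to 0.216) and 0.2698-fold the mandibular level (interval 0.195 to 0.368). The largest overlap between single annotated exons of the 2 genes is 1108 bases, on opposite strands. Reads from it can be told apart only where strand was used, which the sources used here do not state for the counting. The heavy chain gene Nefh, which is added to axons late, stayed at 0.813, 0.615, 0.329 and 0.668 CPM (5 to 11 counts) in the medial nasal, lateral nasal, maxillary and mandibular libraries, with no difference beyond counting error.

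Ina, the gene of alpha-internexin, an intermediate filament of central and early neurons, ran from medial nasal to mandibular with a far wider range than the neurofilament chains. It lies on chromosome 19 from 47014698 to 47025327 and stood at 21.1 CPM in medial nasal, 4.0005 CPM in lateral nasal, 2.44 CPM in maxillary and 0.371 CPM (5 counts) in mandibular tissue. The ratio was 5.28 between the medial and lateral nasal libraries (interval 4.02 to 7.03) and 57.0 between the medial nasal and mandibular libraries (interval 24.1 to 177). Nefm had 0.899 counts for each count of Ina in the medial nasal library (interval 0.756 to 1.07) and 0.846 in the lateral nasal library (interval 0.580 to 1.23). The same ratio was 8.57 in the maxillary library (interval 6.08 to 12.4) and 33.8 in the mandibular library (interval 14.2 to 105). The balance of these 2 filament genes was therefore alike in both nasal libraries and shifted to Nefm in both arch libraries. Prph encodes peripherin, a filament of peripheral neurons. Its 4.88 CPM in medial nasal and 4.02 CPM in the maxillary library did not differ beyond counting error, and it stood at 1.91 CPM in the lateral nasal and 0.742 CPM in the mandibular library. Prph was thus low in the lateral nasal library like Nefm and low in the mandibular library like Ina.

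**Figure D2:**
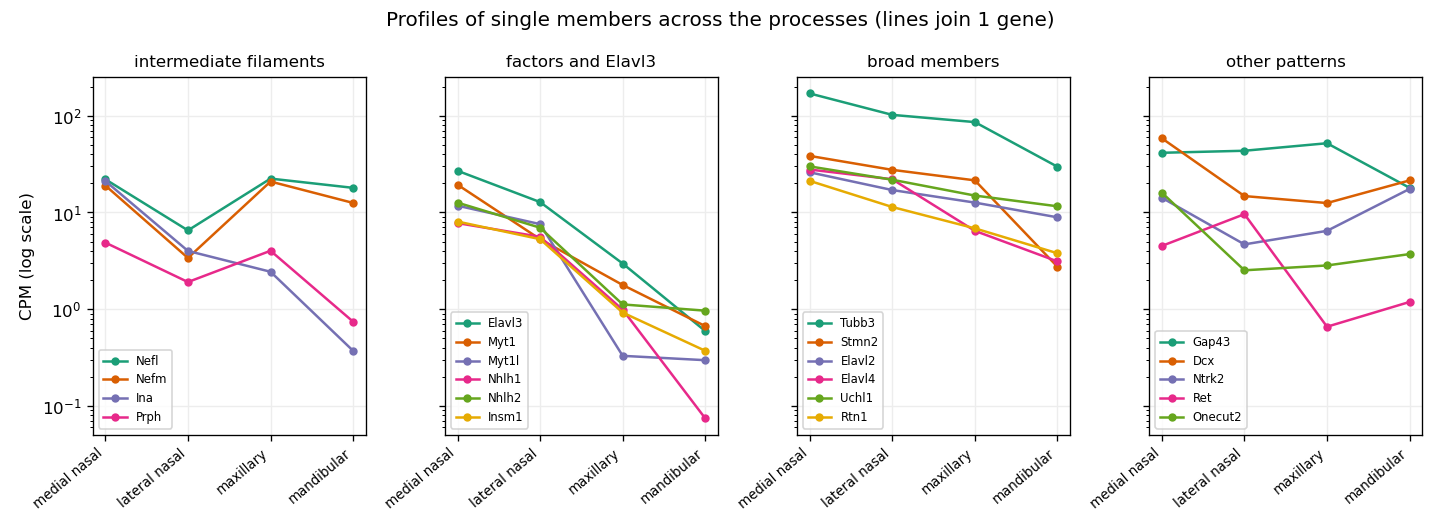
CPM (log axis) of single genes in the 4 libraries, in panels for intermediate filaments, transcription factors with Elavl3, broadly expressed genes and other patterns; each point is 1 library and lines join the points of 1 gene. Nefl and Nefm dip to 6.52 and 3.39 CPM in the lateral nasal library, whereas Ina, Elavl3 and Nhlh1 reach their lowest values, 0.371, 0.594 and 0.0742 CPM, in the mandibular library.

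Genes of microtubules and growth cones included the most abundant members, and several were well measured in all 4 libraries. Tubb3, the class III beta-tubulin of neurons, stood at 170.0 CPM in medial nasal, 102 CPM in lateral nasal, 86.0 CPM in maxillary and 29.7 CPM in mandibular tissue. Dpysl3, a collapsin response mediator that also occurs in mesenchyme, varied less, with 233, 194, 179 and 121 CPM in the same order. Per transcript length, Tubb3 led in the medial nasal library with 84.3 TPM before Dpysl3 with 50.04 TPM, whereas in the mandibular library Dpysl3 led with 23.7 TPM before Tubb3 with 14.7 TPM. Map2, a microtubule protein of dendrites, stood at 105, 50.4, 59.7 and 37.9 CPM in medial nasal, lateral nasal, maxillary and mandibular libraries. Mapt encodes tau, its counterpart in axons. Mapt stood at 20.3 CPM in medial nasal, 7.94 CPM in lateral nasal, 5.86 CPM in maxillary and 4.01 CPM in mandibular tissue. Map2 thus had its second highest level in the maxillary library, and Mapt had it in the lateral nasal library. Crmp1, a further collapsin response mediator, stood at 49.96 CPM in medial nasal, 26.5 CPM in lateral nasal, 35.9 CPM in maxillary and 30.3 CPM in mandibular tissue.

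The stathmins, which release tubulin from microtubule ends, differed from each other. Stmn2, a marker of growing axons, was apart in the mandibular library, with 38.4 CPM in medial nasal, 27.6 CPM in the lateral nasal and 21.5 CPM in the maxillary library, and stood at 2.75 CPM in the mandibular library. The maxillary level of Stmn2 was 7.82-fold the mandibular level (interval 5.55 to 11.3). Stmn3 was led by the medial nasal library, with 11.3 CPM there, 3.02 CPM in lateral nasal, 2.90 CPM in maxillary and 0.668 CPM in mandibular tissue. Stmn4 had the same leading library at lower levels, with 3.77, 1.54, 0.593 and 0.445 CPM. Set against Tubb3 in the same library, Stmn2 had 0.226, 0.27004 and 0.250 counts per Tubb3 count in the medial nasal, lateral nasal and maxillary libraries, against 0.0925 in the mandibular library (interval 0.0642 to 0.130). The mandibular interval lay below the intervals of the other 3 libraries, whose lowest bound was 0.205.

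Dcx and Gap43 departed from the common order. Dcx, the doublecortin gene of migrating neurons on the X chromosome, stood at 58.5 CPM in medial nasal, 14.8 CPM in lateral nasal, 12.5 CPM in maxillary and 21.5 CPM in mandibular tissue. Its mandibular level exceeded the maxillary one by 1.71-fold (interval 1.42 to 2.07 for the mandibular over the maxillary library). Per count of Tubb3 there were 0.344 counts of Dcx in medial nasal, 0.145 in lateral nasal, 0.146 in maxillary and 0.723 in mandibular tissue (interval 0.619 to 0.843). Relative to Tubb3, Dcx was thus highest in the library with the least Tubb3. Gap43, a membrane protein of growth cones, stood at 41.4 CPM in medial nasal, 43.5 CPM in lateral nasal, 52.0 CPM in maxillary and 18.0 CPM in mandibular tissue. Its maxillary level was 1.20-fold the lateral nasal level, with an interval of 1.08 to 1.33, and the 2 nasal levels did not differ beyond counting error.

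Genes of synaptic vesicles lay between 4.14 and 9.39 CPM in the medial nasal library and below 5 CPM in the other 3. Syt1, the calcium sensor of vesicle release, stood at 9.39 CPM in medial nasal, 2.22 CPM in lateral nasal, 4.61 CPM in maxillary and 1.93 CPM in mandibular tissue. The lateral nasal and mandibular levels of Syt1 did not differ beyond counting error, and the maxillary level lay above both. Its relative Syt4 stood at 5.10, 1.29, 0.395 and 0.297 CPM in medial nasal, lateral nasal, maxillary and mandibular libraries. Syp, the vesicle membrane protein synaptophysin, stood at 5.40, 3.26, 1.19 and 0.520 CPM in the same order. Snap25, a membrane fusion protein of the axon terminal, stood at 4.14, 1.29, 0.922 and 0.371 CPM. All 4 genes had their highest level in the medial nasal library, between 1.65-fold (Syp) and 3.95-fold (Syt4) above the next.

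The granins and their relatives package peptides into dense-core granules, and only Scg3 among them reached 5 CPM. Scg3 stood at 5.84 CPM in medial nasal, 1.05 CPM in lateral nasal, 1.25 CPM in maxillary and 0.297 CPM in mandibular tissue, and the medial nasal level was 4.67-fold the maxillary one (interval 2.80 to 8.16). Chgb stood at 2.88, 0.739, 0.724 and 0.223 CPM in the same order. Chga stood at 2.59 and 1.91 CPM in medial and lateral nasal libraries, levels that did not differ beyond counting error, and at 0.922 and 0.148 CPM in the maxillary and mandibular libraries. Scg2 showed no medial nasal lead: it had 16 and 20 counts in the medial and lateral nasal libraries, against 3 in maxillary and 10 in mandibular tissue.

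Adhesion molecules and receptors of axons held the members with the most individual profiles. Cntn2, an axonal glycoprotein of the immunoglobulin family, stood at 44.0 CPM in the medial nasal library and at 11.6, 10.9 and 5.57 CPM in the lateral nasal, maxillary and mandibular libraries. L1cam, an adhesion molecule of axon bundles, stood at 24.2 CPM in medial nasal, 11.2 CPM in lateral nasal, 13.6 CPM in maxillary and 5.57 CPM in mandibular tissue. For both, the lateral nasal and maxillary levels did not differ beyond counting error. Ntrk2, the receptor of the neurotrophin BDNF, which is also made outside neurons, was highest in the mandibular library. It stood at 14.2 CPM in medial nasal, 4.68 CPM in lateral nasal, 6.45 CPM in maxillary and 17.5 CPM in mandibular tissue. The lateral nasal level was 0.267-fold the mandibular level (interval 0.203 to 0.347). The neurotrophin 3 receptor gene Ntrk3 stayed low, with 18 counts in medial nasal, 4 in lateral nasal, 14 in maxillary and 19 in mandibular tissue. Both receptor genes were lowest in the lateral nasal library.

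Ret, the signalling receptor of the GDNF family of growth factors, was the only member that the lateral nasal library led at 5 CPM or more. It stood at 4.51 CPM in medial nasal, 9.60 CPM in lateral nasal, 0.659 CPM in maxillary and 1.19 CPM in mandibular tissue. The medial nasal level was 0.470-fold the lateral nasal level (interval 0.343 to 0.635), and the lateral nasal level was 14.6-fold the maxillary level (interval 7.72 to 31.0). The difference from the medial nasal library lay at the edge of the 2-fold threshold and was not called when the libraries were scaled by DESeq2 size factors or by their totals.

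The 3 remaining members have roles outside these groups. Uchl1, a ubiquitin hydrolase abundant in neurons, stood at 29.9, 21.8, 15.0 and 11.6 CPM in medial nasal, lateral nasal, maxillary and mandibular libraries. Rtn1, a reticulon of the endoplasmic reticulum, stood at 21.2, 11.4, 6.85 and 3.79 CPM in the same order. Gng3, a gamma subunit of G proteins, stood at 5.54 CPM in the medial nasal library and at 3.32, 2.44 and 2.52 CPM in the lateral nasal, maxillary and mandibular libraries. Uchl1 and Rtn1 followed the common order with every step beyond counting error, whereas the last 3 levels of Gng3 did not differ from each other.

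Between the medial and lateral nasal processes, the members were shifted towards the medial nasal library. A gene was called at a 2-fold difference on the scale of log2(CPM + 0.5), with at least 5 CPM in the higher library. Of 33 members at that level in either library, 16 were called higher in the medial nasal library (48.5%), where 2.05% of all 12130 genes were called, and 1, Ret, was called lower, against 0.618% of all genes. The called members included Onecut2 at 6.36-fold (interval 4.54 to 9.11), Nefm at 5.61-fold (interval 4.18 to 7.65) and Scg3 at 5.58-fold (interval 3.27 to 10.1). Tubb3, at 1.66-fold (interval 1.56 to 1.77), was among those above counting error but below 2-fold. The median difference was 0.90 on the log2 scale over the 33 members and 1.05 over all 41, beside -0.04 over all genes.

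Between the medial nasal and maxillary processes, 21 of 32 members were called higher in the medial nasal library, against 3.96% of all 12153 genes, and 0 were called lower, against 1.18%. The largest ratios were those of Myt1l (35.7-fold, interval 15.0 to 111), Syt4 (12.9-fold, interval 5.64 to 36.4) and Nhlh2 (11.3-fold, interval 6.85 to 19.8). The members not called included Tubb3 at 1.98-fold, Stmn2 at 1.79-fold and L1cam at 1.78-fold, all above counting error. The median was 1.75 (log2) over the 32 members and 1.56 over all 41, beside -0.04 over all genes. Between the medial nasal and mandibular processes, 26 of 32 members were called higher in the medial nasal library, against 3.65% of all 12206 genes, and 0 lower, against 1.83%. The 6 members not called were Nefl, Nefm, Dpysl3, Crmp1, Ntrk2 and Gng3. The median was 2.31 over the 32 members and 2.20 over all 41, beside -0.03 over all genes. These 3 comparisons share the medial nasal library, so that 1 unusual library would enter each of them.

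**Figure D3:**
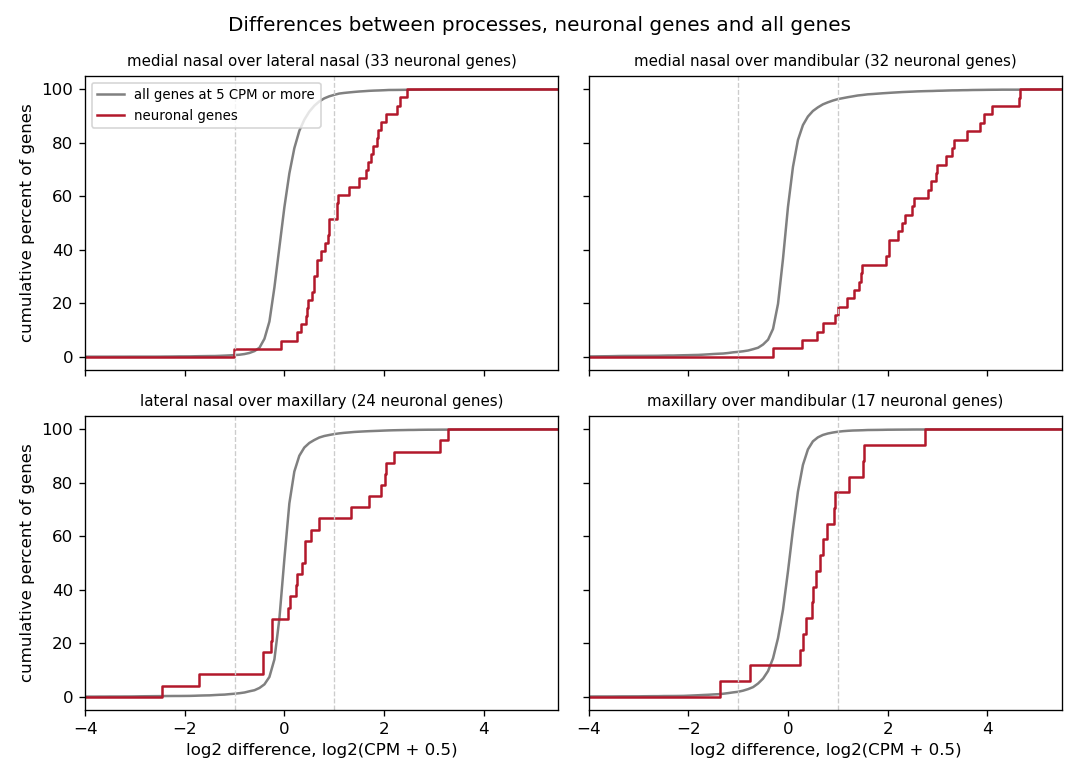
Cumulative percent of genes (y axis) by their log2 difference (x axis, log2(CPM + 0.5), dashed lines at 2-fold) for the neuronal genes (red steps) and all genes (grey), each at 5 CPM or more in either library, in 4 comparisons. The neuronal genes lie to the right of all genes between the medial nasal and mandibular libraries (median 2.31 beside -0.03) and nearer to them between the lateral nasal and maxillary libraries (median 0.38 beside -0.01).

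The lateral nasal library differed from the arch libraries in both directions. Between the lateral nasal and maxillary processes, 8 of 24 members were called higher in the lateral nasal library, against 1.78% of all 11869 genes. These were the RNA-binding genes Elavl3 and Elavl4, the factors Myt1, Myt1l, Nhlh1, Nhlh2 and Insm1, and Ret. The 2 members called lower, against 1.11% of all genes, were Nefl and Nefm. The median of 0.38 (log2) beside -0.01 over all genes thus stood for a mixture of both directions, with 17 of the 24 members above 0. At a minimum of 20 CPM, which kept the most abundant members, this median was -0.063. Between the lateral nasal and mandibular processes, 12 of 24 members were called higher in the lateral nasal library, against 2.51% of all 12047 genes. The 3 called lower were Nefl, Nefm and Ntrk2, against 2.46%. The median was 1.12 over the 24 members and 0.99 over all 41, beside 0.03 over all genes.

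Between the maxillary and mandibular processes, 4 of 17 members were called higher in the maxillary library, against 0.909% of all 11877 genes. They were the axonal genes Stmn2 at 7.82-fold (interval 5.55 to 11.3), Tubb3 at 2.89-fold (interval 2.59 to 3.25), Gap43 at 2.89-fold (interval 2.50 to 3.35) and L1cam at 2.45-fold (interval 1.87 to 3.23). The only member called lower was Ntrk2, against 1.84% of all genes. None of the 6 transcription factors reached 5 CPM in either arch library. The median was 0.65 over the 17 members and 0.71 over all 41, beside 0.02 over all genes.

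Some members were set apart in 1 library from all 3 others. Called 2-fold above each of the other 3 in the medial nasal library were 10 of 33 members, against 1.0% of all genes: Ina, Stmn3, Dcx, Mapt, Elavl3, Syt4, Scg3, Myt1, Onecut2 and Cntn2. The lateral nasal library held 1 such member, Ret (0.226% of all genes), and Nefl and Nefm were called lower there than in each other library (0.121% of all genes). Called lower in the mandibular library than in each of the others were Tubb3, Stmn2 and Gap43 (0.274% of all genes). No member was called in either direction for the maxillary library, where 0.202% of all genes were called higher and 0.0887% lower. Nor was any called lower in the medial nasal library, against 0.129% of all genes, or higher in the mandibular library, against 0.846%.

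With at least 5 CPM demanded in both nasal libraries, 7 of the 33 members stood at least 2-fold above both arch libraries in each of them, against 0.919% of all genes: Elavl3, Elavl4, Myt1, Myt1l, Nhlh1, Nhlh2 and Insm1. With 1 CPM demanded, the number was 11, and the 4 added members were the RNA-binding gene Celf3, the vesicle genes Syt4 and Syp and the receptor gene Ret. The share of all genes at 1 CPM is not given here. At 5 CPM no member stood 2-fold below, against 0.266% of all genes. At any fold, 22 of the 33 had both nasal levels above both arch levels, against 15.0% of all genes, and 27 of all 41 did. The median difference between the nasal and arch means was 2.70 (log2) over the 6 transcription factors, 2.15 over the 4 RNA-binding genes, 1.07 over all 10 microtubule and growth cone genes and 0.30 over all 5 filament genes. Among the filament genes, the 3 that reached 5 CPM (Nefl, Nefm and Ina) had a median of -0.71. Synaptic vesicle genes ran from 0.56 (Syt1) to 1.91 (Syt4), and all of them but Syt1 lay above the 1.07 of the microtubule group. Dense-core granule genes ran from 0.87 (Scg2) to 1.505 (Chga). Cell surface and receptor genes ran from -0.50 (Ntrk3) to 2.35 (Ret), and the remaining members from 0.69 (Gng3) to 1.52 (Rtn1). These role groups were formed with the members known and are given as descriptions.

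With the deposited TPM in place of CPM and a minimum of 5 TPM, fewer members passed. The numbers called higher in the medial nasal library were then 6, 7 and 14 against the lateral nasal, maxillary and mandibular libraries, of 17 members each. In both nasal libraries 1 member was then set apart. With a minimum of 1 TPM, chosen after the data had been seen, the same numbers were 17, 21 and 31, of 37, 36 and 36 members, and 6 members were set apart in both nasal libraries. The shares of all genes called under these TPM minimums are not given here, so these numbers describe the members only.

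A further list of 74 pan-neuronal genes, none of them members, summed to 3278 CPM in medial nasal, 2322 CPM in lateral nasal, 2245 CPM in maxillary and 4138 CPM in mandibular tissue. The full list was thus highest in the mandibular library, unlike the members, with 2524 CPM there from Peg3 alone. Without the imprinted genes Ndn and Peg3 the sums were 2385, 1741, 1553 and 1473 CPM. This removal was made with earlier results of these data known. Of 50 that reached 5 CPM, 11 were called higher in the medial nasal library than in each other library, 0 in lateral nasal, 0 in the maxillary and 1, Peg3, in the mandibular library, where 2 were called lower. The shares of all genes were 1.0%, 0.226%, 0.202% and 0.846% in the same order, and 0.274% for those lower in the mandibular library. The median of the difference between the nasal and arch means was 0.45 (log2), beside 1.41 for the 33 neuronal members and -0.02 for all genes. Map1b, a microtubule protein of axons, was the most abundant of the list after Peg3, at 724, 462, 344 and 360 CPM in medial nasal, lateral nasal, maxillary and mandibular libraries. Tubb2b, a further beta-tubulin, stood at 229, 250, 214 and 156 CPM, and Ank2, an ankyrin of axons, at 206, 127, 114 and 129 CPM. Peg3, an imprinted gene made in many cell types, stood at 811, 497 and 599 CPM in medial nasal, lateral nasal and maxillary libraries and 2524 CPM in the mandibular library.

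**Figure D4:**
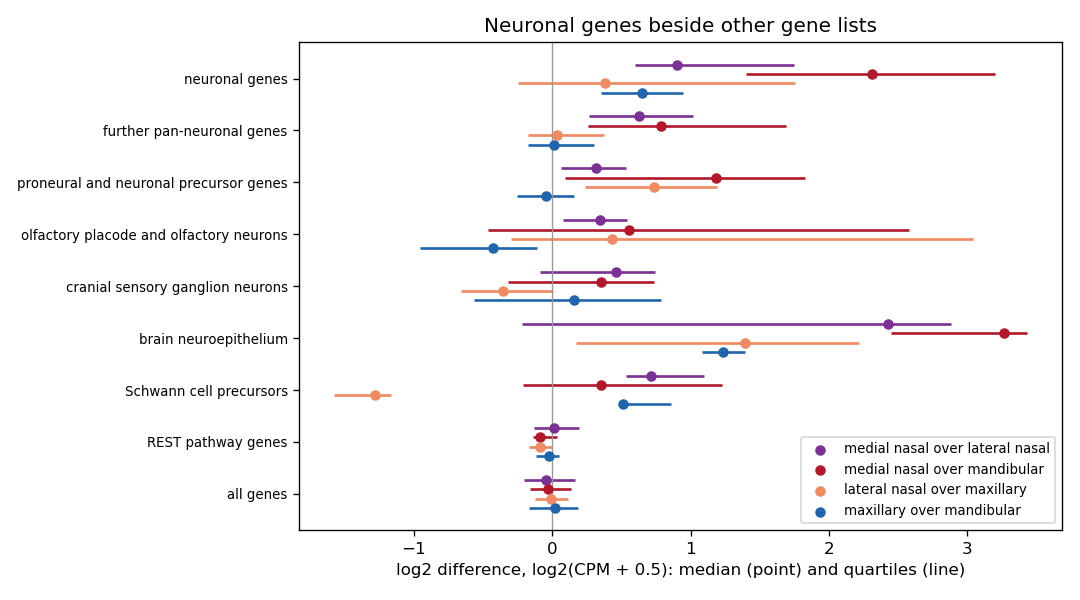
Median (point) and quartiles (line) of the log2 difference, log2(CPM + 0.5), of the neuronal genes, 7 other gene lists and all genes at 5 CPM or more, with 4 comparisons per list by colour. The neuronal genes have medians of 0.90, 2.31, 0.38 and 0.65, while the REST pathway genes stay within 0.10 of 0 in all 4.

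Some genes of other neural cells shared parts of these patterns. The list of brain neuroepithelium (18 genes) summed to 246 CPM in medial nasal, 283 CPM in lateral nasal, 175 CPM in maxillary and 90.3 CPM in mandibular tissue. Lix1 alone gave 155, 246, 159 and 83.4 CPM of these sums. At 0 counts were 0, 2, 0 and 3 of its genes in the same order. Of 8 genes of the list at 5 CPM between the medial and lateral nasal libraries, 5 were called higher in the medial nasal library and 0 lower. The shares of all genes were 2.05% and 0.618%. The hindbrain and midbrain gene En2, picked after its values were seen, stood at 5.62 CPM in the medial nasal library, against 0.0615, 0.198 and 0.148 CPM in the lateral nasal, maxillary and mandibular libraries. Sox1, picked in the same way, stood at 7.83 CPM in the medial nasal library and at 0.739, 0.263 and 0.297 CPM in the others. En2 and Sox1 share their leading library with the members called higher in the medial nasal library alone, but this likeness was fixed by the choice. The sum of the list was highest in the lateral nasal library instead. The part of brain tissue in the levels of the members was not tested.

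The list of olfactory placode and olfactory neurons (25 genes) summed to 596, 480, 442 and 577 CPM in medial nasal, lateral nasal, maxillary and mandibular libraries, with 0, 1, 4 and 7 genes at 0 counts. Of 16 genes at 5 CPM, 4 were called higher in both nasal than in both arch libraries (0.919% of all genes) and 0 lower (0.266%). Lhx2 and Fezf1, transcription factors of the olfactory epithelium named after their values were seen, had 26.1 and 15.8 CPM in medial nasal tissue and 18.2 and 13.7 CPM in lateral nasal tissue. In the maxillary library they stood at 1.25 and 0.263 CPM, and in the mandibular library Lhx2 stood at 0.891 CPM and Fezf1 at 0 counts, which allows up to 0.223 CPM. Omp, the marker of mature olfactory neurons, had at most 0.517 CPM. The proneural list (20 genes) was led by Sox11 at 1036, 1018, 1004 and 947 CPM. It had 4 of 12 genes called higher in both nasal libraries and 0 lower, beside the same shares of all genes. Neurod1, a target of the proneural factors named after its values were seen, stood at 11.46 CPM in medial nasal, 8.37 CPM in lateral nasal, 1.12 CPM in maxillary and 0.223 CPM in mandibular tissue. The 7 members called in both nasal libraries had the same direction as Neurod1, Lhx2 and Fezf1. This likeness was fixed by the choice of Neurod1, Lhx2 and Fezf1 after their values were seen. The sum of the olfactory list was instead higher in the mandibular (577 CPM) than in the lateral nasal library (480 CPM). The share of olfactory cells in the levels of the 7 members was not tested.

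The list of cranial sensory ganglion neurons (18 genes) summed to 184, 139, 187 and 128 CPM in medial nasal, lateral nasal, maxillary and mandibular libraries, with 0, 4, 0 and 1 genes at 0 counts. Pou4f1, the homeobox gene that defines these neurons, was named after its values were seen. It had 41 counts in medial nasal, 1 in lateral nasal, 24 in maxillary and 7 in mandibular tissue. Pou4f1 was lowest in the lateral nasal library, whereas the summed level of the list was lowest in the mandibular library. Among more abundant genes of the list, Runx1 stood at 27.0, 28.7, 17.7 and 26.4 CPM and the neurotrophin receptor gene Ngfr at 11.1, 16.9, 38.6 and 15.2 CPM in medial nasal, lateral nasal, maxillary and mandibular libraries. Schwann cell precursor genes, which mark the cells along nerves, summed to 123, 71.3, 107 and 84.3 CPM, with no gene at 0 in any library. Of 6 at 5 CPM between the lateral nasal and maxillary libraries, 5 were called lower in the lateral nasal library (1.11% of all genes) and 0 higher (1.78%). Erbb3, a receptor of glial neuregulin signals and the most abundant of them, stood at 79.2, 49.5, 41.2 and 44.7 CPM in the same order, and was not among the 5. The endothelin receptor gene Ednrb, next in abundance, stood at 17.7, 10.2, 27.2 and 19.2 CPM in medial nasal, lateral nasal, maxillary and mandibular libraries. The part of sensory axons and their glia in the neurofilament levels was not tested.

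The REST pathway, which keeps neuronal genes silent in other cells, was level across the libraries apart from Srrm4. Rest itself stood at 275 CPM in medial nasal, 272 CPM in lateral nasal, 294 CPM in maxillary and 303 CPM in mandibular tissue. Of 13 genes of the pathway, 1 was called between the medial nasal library and each of the other 3, and it was Srrm4, a neuronal splicing factor that acts against REST. Srrm4 stood at 9.53 CPM in medial nasal, 2.83 CPM in lateral nasal, 0.527 CPM in maxillary and 0.148 CPM (2 counts) in mandibular tissue. The remaining 12 genes of the pathway were called in no comparison. Of all genes, 2.05%, 3.96% and 3.65% were called higher in the medial nasal than in the lateral nasal, maxillary and mandibular libraries.

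Several members share exon with another gene in the GENCODE release used here for coordinates. That release is later than the one used for counting, and whether the earlier one held the same overlaps was not checked. Each length below is the largest overlap between single exons. Reads from overlaps on opposite strands can be told apart only where strand was used. On the opposite strand, Ina shares 456 bases with Nt5c2, Syp 875 bases with Gm14703, Gng3 398 bases with Bscl2, Syt4 273 bases with Gm26658, Uchl1 232 bases with Uchl1os and Myt1l 208 bases with Gm20208. Map2 and Celf3 share 65 and 74 bases. On the same strand, where use of strand would not help, Elavl3 shares 220 bases with Gm49318 and L1cam 100 bases with Arhgap4.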

How the data were processed

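The data are 1 RNA library from each of 4 facial processes at stage e11.5. Libraries were stranded, from total RNA depleted of ribosomal RNA. The authors aligned single-end reads of 50 bases to mm10 with STAR and estimated expected counts with RSEM 1.4.1 on GENCODE M4 annotation. The authors also deposited TPM, which correct for transcript length. The expected counts were rounded. Symbols, coordinates and exons were taken by gene ID from a later GENCODE release on GRCm38, the build of mm10, for 42462 of 43346 entries. The 96 spike-in entries and 26248 entries named only by a number were left out.

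TMM factors were computed with edgeR 4.0.16 on the genes that had 10 counts or more in any library, giving 1.02, 1.01, 0.987 and 0.985 for the medial nasal, lateral nasal, maxillary and mandibular libraries. Total counts, 13216161 to 16163874 per library, set the precision. A pseudocount of 0.5 CPM was added before log2 values were taken. With 1 library per process no test against replicates was possible, so differences past 2-fold at 5 CPM or more were counted for the members and for all genes, with exact Poisson and binomial 95% intervals (Clopper-Pearson). The steps were tested on simulated data. All 41 members were described, and up to 4 genes of each other list, those with the highest mean level, unless said otherwise. The members and lists were chosen with earlier results of these data known. Alternatives were DESeq2 1.42.0 size factors, library totals, TPM, a pseudocount of 0.1 or 2, a CPM minimum of 1, of 20 or absent, a threshold of 3-fold, posterior mean counts and removal of genes whose posterior mean count was at least 10% away from the expected one. No member met that criterion. Of 14 members no promoter was used here. Values of some genes of the other lists are not reported here.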

Additional observations from a re-analysis of the deposited data

How the results depend on the processing

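No paired analysis was possible because each process had 1 library. No library was left out of a group for the same reason. Numbers of members under the alternatives below are given without the share of all genes called under the same setting. They show how the member counts moved and are no contrast with all genes.

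The 164 levels of the 41 members stayed within their counting intervals under DESeq2 size factors, library totals and posterior mean counts. Medians and counts over the members kept their values within the counting interval of the median or within 1.5 times the count under a pseudocount of 0.1 and without genes of uncertain counts. Under DESeq2 size factors and under library totals they did so too, except for Ret: the number lower in the medial than in the lateral nasal library and the number higher in the lateral nasal library than in each other were 0 under both scalings, in place of 1. A single median changed sign: between the lateral nasal and maxillary libraries it was -0.063 at a minimum of 20 CPM.

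With the deposited TPM and a minimum of 5 TPM, the numbers higher in the medial nasal library were 6, 7 and 14 against the lateral nasal, maxillary and mandibular libraries, and the medians 0.71, 0.94 and 1.55. The numbers higher in the lateral nasal library were 1 and 5 against the maxillary and mandibular libraries. Higher in the medial nasal library than in each other were 4, with a median of 0.98, and higher in both nasal libraries 1, with a median of 0.90. The maxillary median against the other libraries was -0.038. The numbers lower in the medial than in the lateral nasal, in the lateral nasal than in the mandibular and in the maxillary than in the mandibular library, and higher or lower in the lateral nasal library than in each other, were 0.

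With a minimum of 1 TPM, an alternative added once the values were known, the medial nasal median was 1.75 against the mandibular library and 1.36 against the other 3, the mandibular median against the other 3 -1.03 and the nasal median 1.08. The number lower in the medial than in the lateral nasal library and that higher in the lateral nasal library than in each other were 0, that higher in the maxillary than in the mandibular library was 7, and 5 were lower in the mandibular library than in each other.

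With a pseudocount of 2, the medians were 1.72 between the medial nasal and mandibular libraries, 1.397 for the medial nasal and -0.98 for the mandibular library against the other 3, and 1.11 for the nasal libraries, and both calls of Ret were lost (0). With a minimum of 1 CPM, 20 members were higher in lateral nasal and 10 in maxillary than in mandibular tissue, 6 were lower in the mandibular library than in each other and 11 higher in both nasal libraries. With no minimum these numbers were 20, 12, 8 and 11.

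With a minimum of 20 CPM, the numbers higher in the medial nasal library were 8, 8 and 14 against the lateral nasal, maxillary and mandibular libraries, and 5 were higher than in each other. The numbers higher in the lateral nasal library were 1 and 4 against the maxillary and mandibular libraries, and 1 was higher in both nasal libraries. The numbers lower in the medial than in the lateral nasal, in the lateral nasal than in the mandibular and in the maxillary than in the mandibular library, and higher or lower in the lateral nasal library than in each other, were 0. The medians were 0.98 between the medial nasal and maxillary libraries, 1.35 for the medial nasal and -0.15 for the maxillary library against the other 3, and 0.94 for the nasal libraries. A higher minimum leaves fewer members, 18 of 33 here.

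With a 3-fold threshold, the numbers lower in the medial than in the lateral nasal library, lower in the maxillary than in the mandibular library and higher in the lateral nasal library than in each other were 0. The number higher in the maxillary than in the mandibular library was 1, as were the numbers lower in the lateral nasal and in the mandibular library than in each other. Depth limits the members with few counts: 3 counts stood for 0.185 to 0.223 CPM, and 1 library per process leaves the spread between embryos unknown.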

Other observations

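Genes of transmitter identity showed the same leading library as the neuronal genes at lower levels. Slc17a6, the vesicular glutamate transporter of many embryonic neurons, stood at 9.76 CPM in medial nasal, 3.32 CPM in lateral nasal, 1.05 CPM in maxillary and 0.148 CPM in mandibular tissue. Gad2 and Gad1, the enzymes that make GABA, stood at 8.57 and 4.51 CPM in medial nasal, 2.89 and 1.05 CPM in lateral nasal, 0.263 and 0.659 CPM in maxillary and 0.223 and 0.742 CPM in mandibular tissue. Slc17a7, a glutamate transporter of later neurons, had 0.591, 0.369, 0.0659 and 0.223 CPM in the same order.

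Of 13 motor and autonomic genes, Chat and Dbh, which make acetylcholine and noradrenaline and were named after their values were seen, had 0 counts in every library, which allows up to 0.223 CPM. Slc18a2, the vesicular monoamine transporter, stood at 10.7, 9.85, 10.3 and 11.9 CPM in medial nasal, lateral nasal, maxillary and mandibular libraries. Among 10 neuroendocrine granule genes, Cpe, a carboxypeptidase of many secretory cells, stood at 74.3, 56.7, 71.1 and 53.1 CPM in the same order. Cadps, which primes dense-core granules for release, stood at 12.9, 5.35, 4.41 and 2.38 CPM, and Scg5, a granin of the same granules, at 8.80, 3.51, 1.78 and 1.41 CPM.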
